A study of Homo sapiens with 6 samples.

Results

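The 10 alveolar type II identity genes SFTPA1, SFTPA2, SFTPB, SFTPC, SFTPD, NKX2-1, LAMP3, SLC34A2, NAPSA and FOXA2 were followed in RNA sequencing of 2D-cultured A549 cells. They were picked by gene symbol as accepted markers of this lung cell, by a rule that uses no measured value, although results of these data were known at the time. All 10 were listed among the 58676 genes of the deposited table, and 9 of the 10 were above 0 in at least 1 library. The A549 line, long established from a human lung adenocarcinoma, is often used as a stand-in for alveolar type II cells. A549 MOCK (3 libraries) carried an empty vector, and A549 Rec (3 libraries) carried human recoverin cDNA, recoverin being a calcium sensor of the retina that, by the labels, A549 itself lacks. The labels speak of transfection with a plasmid, while the study's methods describe retroviral transduction of a pMXs-puro construct with a myc tag and selection in puromycin. Both lines were grown for 6 days in HG-DMEM medium with CS and methylcellulose. Nothing states whether the libraries of a group came from separate cultures, so that p-values measure the spread between these libraries only, which may be technical.

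Alveolar type II cells make pulmonary surfactant, the film of lipid and protein that keeps alveoli from collapsing. The transcription factor NKX2-1, together with FOXA factors, drives the surfactant protein genes. The hydrophobic proteins SFTPB and SFTPC spread the lipid film, while the collectins SFTPA1, SFTPA2 and SFTPD bind microbes. LAMP3 lies in the membrane of the lamellar bodies that store surfactant, NAPSA is an aspartic protease that trims the precursors of the hydrophobic proteins, and SLC34A2 takes up phosphate set free from surfactant lipid.

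Levels are given in TPM, a measure of transcript share that corrects for gene length and has the same sum in each library. The whole reads behind the TPM could be recovered, and gave 15184449 to 18573408 reads per library. RCVRN, the recoverin gene, was listed at 0 in the 3 A549 MOCK libraries and at 322, 338 and 339 TPM in the 3 A549 Rec libraries, as the labels say. Both libraries numbered replicate 3 stood apart. Mitochondrially encoded genes took 34.5% of the TPM in A549 MOCK replicate 3 and 26.9% in A549 Rec replicate 3, against 13.3% to 17.3% in the other 4 libraries. The labelled cell type was checked with an epithelial list, and KRT18 and KRT8, the keratin pair of simple epithelia, had means of 2941 and 2504 TPM over the 6 libraries. In the same list EPCAM had a mean of 2.08 TPM and KRT19 drew 10 reads in all. Of 10 leukocyte, endothelial and fibroblast markers, 8 were above 0 in some library, and their summed level was 4.01 to 6.71 TPM in A549 MOCK, against 4.00 to 6.09 TPM in A549 Rec, most of it COL1A1. The macrophage gene CD163 and the T cell gene CD3E were at 0 in all 6 libraries.

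A549 held little of the alveolar type II set. FOXA2 was the only member above 5 TPM in any library, NAPSA and SFTPD were low, and the other 7 members were near or at 0. Only 3 of the 10 members reached 1 TPM in at least 3 of the 6 libraries. The 7 others together drew 50 of 96019412 reads. For scale, 39.1% of the 19922 protein-coding genes in the table had a mean under 1 TPM and 18.0% were at 0 throughout. In bulk samples, fewer cells that express a gene and less RNA per cell cannot be told apart.

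**Figure D1:**
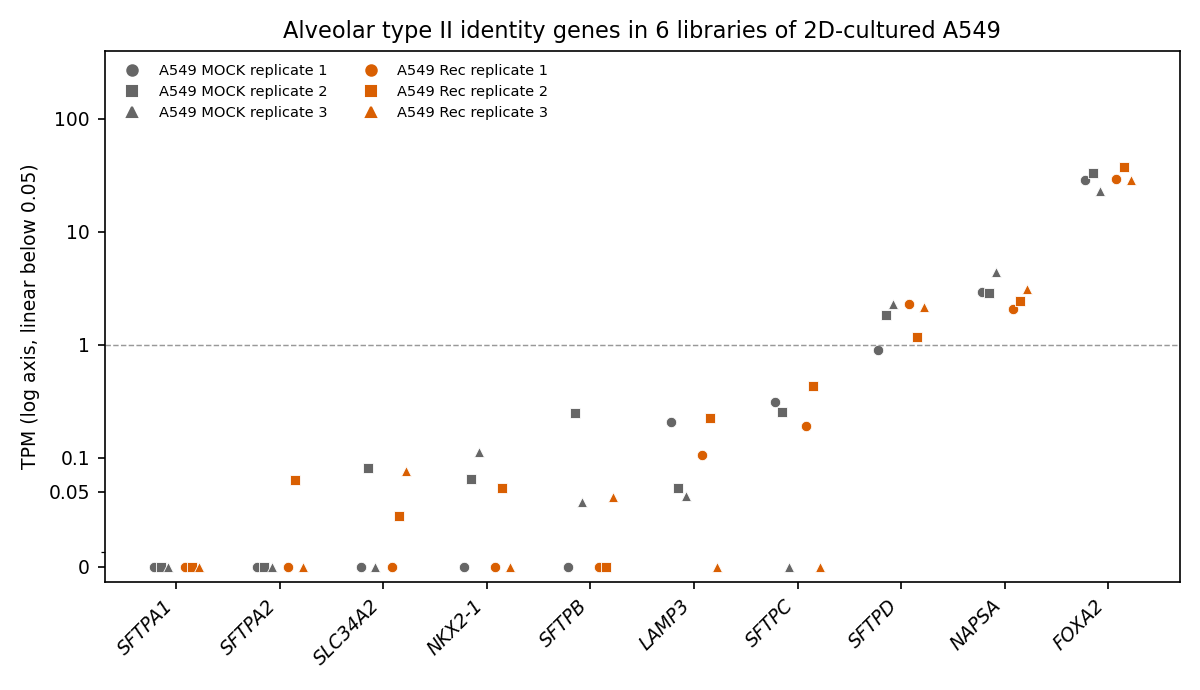
TPM of the 10 alveolar type II identity genes, ordered by mean level, on a log axis that is linear below 0.05 TPM. Each point is 1 library (grey A549 MOCK, orange A549 Rec, the shape gives the replicate number) and the dashed line marks 1 TPM. FOXA2 sits between 22.9 and 37.3 TPM, NAPSA and SFTPD between 0.902 and 4.38 TPM, and the other 7 genes below 0.43 TPM, with grey and orange ranges that overlap for every gene.

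FOXA2 (ENSG00000125798, chr20:22581005-22585455, minus strand, GRCh38) encodes a forkhead factor that opens chromatin in lung, liver and gut endoderm. Its level was 28.5, 33.2 and 22.9 TPM in A549 MOCK replicates 1 to 3. In A549 Rec replicates 1 to 3 it was 29.2, 37.3 and 28.7 TPM. Replicate 2 was the highest library of each group, and the groups overlapped. These levels rest on 334 to 568 reads per library. Over the 6 libraries the mean was 29.97 TPM, higher than the mean of 79.2% of protein-coding genes, and the coefficient of variation was 16.3%. The next protein-coding genes on either side lie 862519 and 449931 bases away, and both, PAX1 and SSTR4, were at 0 in the 6 libraries. These neighbours were picked by position alone.

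NKX2-1 (ENSG00000136352, chr14:36516392-36521149, minus strand), the factor that specifies the lung lineage and is used in the clinic to mark lung adenocarcinoma, was close to absent. It drew 4 reads in all 6 libraries together, with an exact 95% Poisson interval of 1.09 to 10.2 reads. There were 1 and 2 reads in A549 MOCK replicates 2 and 3, 1 read in A549 Rec replicate 2 and 0 in the other 3 libraries. The highest level was 0.113 TPM, which is below the 0.169 TPM that 3 reads give in that library. The antisense gene NKX2-1-AS1, which overlaps it, also drew 4 reads, and since the use of strand in counting is not stated, reads of the pair cannot be fully told apart. SFTA3, the neighbouring surfactant-associated gene 2563 bases away, was at 0 throughout. NKX2-8, a related homeobox gene 59430 bases to the other side that was chosen after its values were seen, had a mean of 7.37 TPM and a range of 4.57 to 9.77 TPM. Of the 2 transcription factors of the set, FOXA2 drew 2475 reads and NKX2-1 drew 4.

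Among the 5 surfactant protein genes, SFTPA1, SFTPA2, SFTPB and SFTPC drew 28 reads in all. SFTPC (on chromosome 8), the protein most particular to this cell, had 5, 4 and 0 reads in A549 MOCK replicates 1 to 3. It had 3, 8 and 0 reads in A549 Rec replicates 1 to 3. Its highest level was 0.429 TPM, and both replicate 3 libraries, those with the large mitochondrial share, were at 0, which allows up to 0.168 and 0.179 TPM at 3 reads. SFTPC overlaps LGI3 on the opposite strand, which had a mean of 0.466 TPM, and the part of LGI3 in these reads was not tested. SFTPB (chr2:85657314-85668741, minus strand), without which newborn lungs fail, drew 7 reads, with an exact 95% Poisson interval of 2.81 to 14.4. Of these, 5 were in A549 MOCK replicate 2 (0.247 TPM), 1 in A549 MOCK replicate 3 and 1 in A549 Rec replicate 3. A549 MOCK replicate 2 alone therefore held most of what was seen of SFTPB.

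The collectin genes SFTPA1 (chr10:79610939-79615455, plus strand) and SFTPA2 (chr10:79555852-79560402, minus strand) are near-identical copies, and how the authors' counting treated reads that fit both is not stated. SFTPA1 had 0 reads in all 6 libraries, which allows up to 0.210 to 0.248 TPM per library at 3 reads. SFTPA2 had 1 read, in A549 Rec replicate 2 (0.0636 TPM). Neither copy was detectable at this depth. These intervals and limits cover counting error only.

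The promoters of the collectins are shown because FOXA2 was the member with the highest level and because the SFTPA pair is hard to tell apart. Each is the 250 bases before a RefSeq transcript start on GRCh38.p14, written 5′ to 3′ on the gene's strand. Capitals mark the only matches in these 3 windows to a forkhead motif (TGTTTAC or its reverse complement GTAAACA) or an NKX2 motif (CACTTG or CAAGTG).
SFTPA1, chr10:79610689-79610938, plus strand: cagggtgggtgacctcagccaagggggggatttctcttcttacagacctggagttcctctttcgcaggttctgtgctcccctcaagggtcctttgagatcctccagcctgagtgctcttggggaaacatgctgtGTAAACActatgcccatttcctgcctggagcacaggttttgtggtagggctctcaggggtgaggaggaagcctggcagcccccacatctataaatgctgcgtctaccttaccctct
SFTPA2, chr10:79560408-79560657, minus strand: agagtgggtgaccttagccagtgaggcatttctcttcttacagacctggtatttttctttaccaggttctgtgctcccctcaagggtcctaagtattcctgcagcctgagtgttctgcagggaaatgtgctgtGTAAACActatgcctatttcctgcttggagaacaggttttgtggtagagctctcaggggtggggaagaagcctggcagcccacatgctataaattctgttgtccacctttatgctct
SFTPD, chr10:79949106-79949355, minus strand: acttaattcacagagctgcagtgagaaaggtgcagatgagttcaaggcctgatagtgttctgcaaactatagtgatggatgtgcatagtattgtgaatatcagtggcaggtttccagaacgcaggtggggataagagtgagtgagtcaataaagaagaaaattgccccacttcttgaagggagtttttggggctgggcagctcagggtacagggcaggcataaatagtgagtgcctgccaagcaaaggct
The SFTPA1 and SFTPA2 windows were identical at 214 of 255 aligned columns (83.9%), and both windows shown hold the forkhead letters, beginning 116 bases before the start in SFTPA1 and 117 in SFTPA2. SFTPA2 has a further RefSeq window (chr10:79559872-79560121), at a start within the gene, that holds neither motif. SFTPD holds neither motif in its only window, whose transcript start lies 33509 bases inside the 5′ end of the gene as the deposited table spans it. Of 35116 windows of this length, 2.98% hold the forkhead motif and 9.50% the NKX2 motif on either strand. Of the 10 members, 7 had RefSeq windows, 12 in all, and beside the SFTPA pair a match was found in 1 window of SLC34A2 (NKX2) and 1 of NKX2-1 (both motifs). A match to these letters is a description of the sequence and not a site that was measured.

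SFTPD (ENSG00000133661, chr10:79937740-79982614, minus strand) was the surfactant protein gene with the most signal. Its levels were 0.902, 1.84 and 2.29 TPM in A549 MOCK replicates 1 to 3, against 2.27, 1.17 and 2.15 TPM in A549 Rec replicates 1 to 3. The lowest and the highest library both belonged to A549 MOCK, so that the groups overlapped fully. These values rest on 6 to 17 reads per library and 74 in all, at the length of 1321 bases recovered for the gene. A length of 3963 bases, 3 times as long, would also give whole reads and would raise the counts 3 times, while the TPM would stay as they are. The exact 95% Poisson interval of the lowest library, 0.331 to 1.96 TPM, overlapped that of the highest, 1.34 to 3.67 TPM, at the shorter length. Of the genes that overlap SFTPD, BMS1P21 had a mean of 0.11 TPM and the others were at 0. Summed over the 5 surfactant protein genes, the level was 1.21, 2.35 and 2.34 TPM in A549 MOCK, against 2.46, 1.66 and 2.20 TPM in A549 Rec, with SFTPD the largest part in each library.

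NAPSA (ENSG00000131400, chr19:50358477-50365830, minus strand) encodes napsin A, the protease used with NKX2-1 to mark lung adenocarcinoma. Its levels were 2.94, 2.89 and 4.38 TPM in A549 MOCK replicates 1 to 3. In A549 Rec replicates 1 to 3 they were 2.07, 2.44 and 3.13 TPM. Each A549 Rec library was below the A549 MOCK library of the same number, but A549 Rec replicate 3 was above A549 MOCK replicates 1 and 2, so that the groups overlapped. The counts were 37 to 88 reads per library and 339 in all. The span of NAPSA lies inside that of NR1H2 (chr19:50329653-50382982, chosen after its values were seen), a nuclear receptor gene on the opposite strand with a mean of 96.1 TPM. How many of the NAPSA reads came from NR1H2 transcripts was not tested.

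LAMP3 (chr3:183122213-183163839, minus strand) drew 13 reads, with an exact 95% Poisson interval of 6.92 to 22.2. They fell as 4, 1 and 1 reads in A549 MOCK replicates 1 to 3, against 2, 5 and 0 in A549 Rec replicates 1 to 3, with a highest level of 0.224 TPM. SLC34A2 (chr4:25648011-25678748, plus strand), the phosphate carrier, drew 5 reads, with an interval of 1.62 to 11.7. These were 2 in A549 MOCK replicate 2, 1 in A549 Rec replicate 2 and 2 in A549 Rec replicate 3, and no library passed 0.0805 TPM. Neither gene reached 1 TPM in any library.

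By mean TPM over the 6 libraries, the order was FOXA2 at 29.97, NAPSA at 2.97, SFTPD at 1.77, SFTPC at 0.197, LAMP3 at 0.106, SFTPB at 0.0561, NKX2-1 at 0.0385, SLC34A2 at 0.0316, SFTPA2 at 0.0106 and SFTPA1 at 0. FOXA2 was above NAPSA in every library, by 5.22 to 15.3 times. NAPSA and SFTPD overlapped, with NAPSA the higher in 5 of the 6 libraries. SFTPD in its lowest library (0.902 TPM) was above SFTPC in its highest (0.429 TPM). From SFTPC downward, neighbours in the order overlapped and could not be told apart at this depth.

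Library by library, the number of members at 1 TPM or more was 2 in A549 MOCK replicate 1, where SFTPD was just below, and 3 in each of the other 5 libraries. The number above 0 was 5, 8 and 6 in A549 MOCK, against 5, 8 and 5 in A549 Rec. The summed level of the 10 members was 32.9, 38.6 and 29.7 TPM in A549 MOCK, against 33.8, 41.8 and 34.1 TPM in A549 Rec, of which FOXA2 made up 76.9% to 89.4%. The 7 members under 1 TPM drew 9, 13 and 4 reads in A549 MOCK, against 5, 16 and 3 reads in A549 Rec. The fewest reads were in the replicate 3 library of each group, the pair with the large mitochondrial share, and the part of that share in it was not tested.

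The comparison of A549 Rec with A549 MOCK asks whether added recoverin moved what was left of the program. It did not move any member past the test. With limma on log2(TPM + 1), genes of at least 1 TPM in at least 3 libraries were tested, and a call needed an adjusted p (Benjamini-Hochberg) under 0.05 with at least a 2-fold change. Of 17408 tested genes, 1 (0.00574%), RCVRN, was called. An unadjusted limma p under 0.05 was found for 359 genes (2.06%), and groups that did not overlap for 899 genes (5.16%). Of the 3 members tested, 0 were called, 0 had an unadjusted p under 0.05 and 0 had groups that did not overlap. With limma and voom weights on the recovered reads, 21543 genes with at least 10 reads in total were tested. That filter let 5 members in, and 0 of them were called. With the replicate number as a block, an unadjusted limma p under 0.05 was found for 715 genes (4.11%), and for 0 of the 3 members.

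The mean of FOXA2 was 28.2 ± 5.18 TPM for A549 MOCK, against 31.7 ± 4.86 TPM for A549 Rec (SD, n = 3 for both). The log2 difference, A549 Rec minus A549 MOCK, came to 0.17 with SE 0.17 and limma's Benjamini-Hochberg adjusted p of 0.9997. The 95% interval covered changes from 0.853- to 1.48-fold on the TPM + 1 scale, so that a 2-fold change in either direction lay outside it. A549 Rec was higher in 3 of 3 same-numbered pairs. Without A549 MOCK replicate 3, the library with the largest mitochondrial share, the log2 difference was 0.03, and without A549 Rec replicate 2 it was 0.05. When TPM were rescaled without mitochondrially encoded genes, FOXA2 was 33.0, 39.4 and 34.9 in A549 MOCK, against 35.3, 43.1 and 39.3 in A549 Rec, and A549 MOCK replicate 3 was no longer the lowest library.

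NAPSA had means of 3.40 ± 0.846 TPM for A549 MOCK and 2.54 ± 0.537 TPM for A549 Rec (SD, n = 3 for both), and was lower in A549 Rec in 3 of 3 same-numbered pairs. The log2 difference was −0.31 with SE 0.20 and limma's adjusted p of 0.9997. The 95% interval ran from 0.583- to 1.12-fold on the TPM + 1 scale. Without A549 MOCK replicate 3, the library with the highest NAPSA, the difference was −0.15. SFTPD had means of 1.68 ± 0.710 and 1.86 ± 0.608 TPM (SD, n = 3 for both). The log2 difference came to 0.11 with SE 0.28 and limma's adjusted p of 0.9997, with an interval of 0.681- to 1.71-fold on that scale. Without A549 MOCK replicate 1 the log2 difference of SFTPD was −0.12. With 0.1 in place of 1 added to the TPM, the log2 differences were larger in size, −0.40 for NAPSA and 0.18 for SFTPD. For FOXA2, NAPSA and SFTPD the exact two-sided permutation test gave p = 0.4, 0.3 and 0.7, where 3 libraries against 3 cannot go below 0.1. The 7 members under the filter drew 26 reads in A549 MOCK, against 24 in A549 Rec, and a difference was not detectable at this depth.

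**Figure D2:**
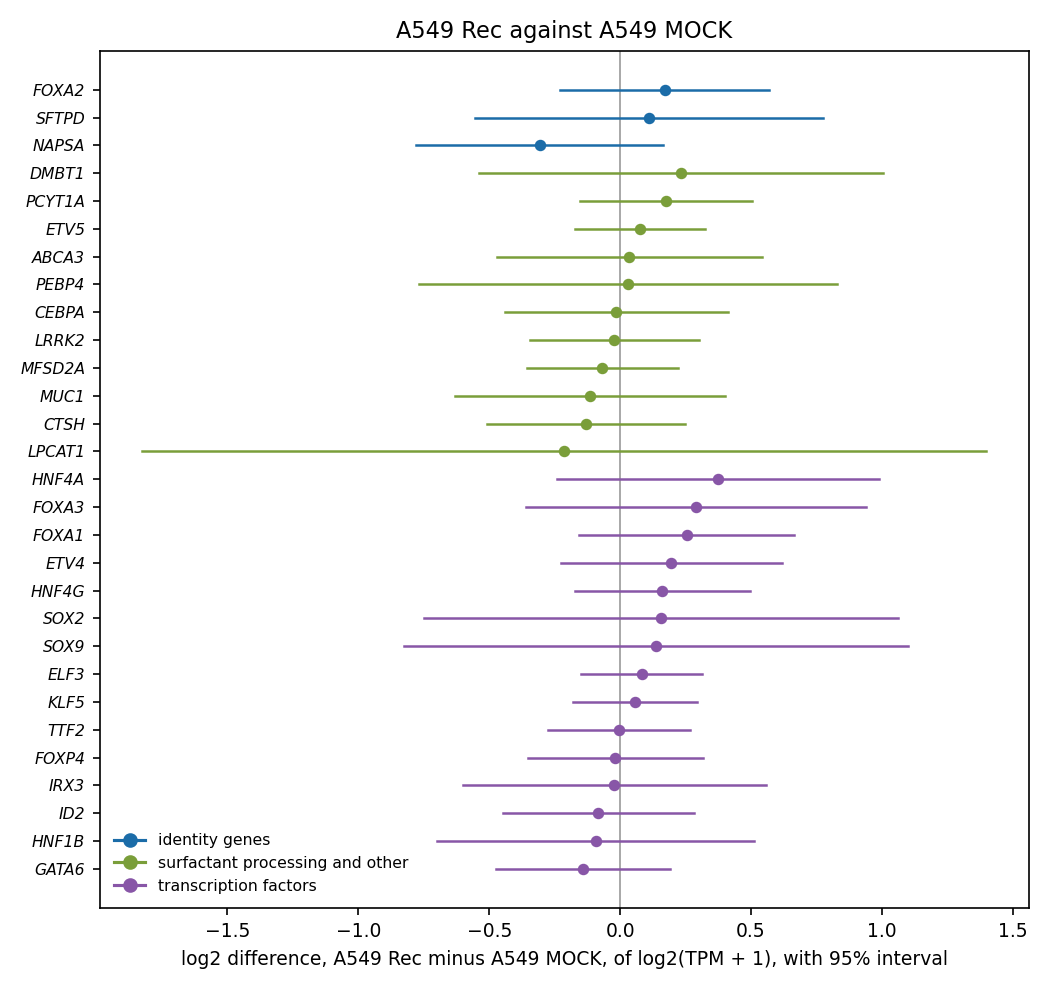
Log2 difference in log2(TPM + 1), A549 Rec minus A549 MOCK, from limma, for the tested identity genes (3), the tested surfactant processing and other alveolar type II genes (11) and tested lung and foregut transcription factors (15 of 16). Points are estimates over 3 libraries a group and bars their 95% intervals. Every bar crosses 0, and LPCAT1 has by far the widest.

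The ratio of FOXA2 to NAPSA within a library, chosen after the values were seen, does not depend on how a library is scaled. It was 9.71, 11.5 and 5.22 in A549 MOCK replicates 1 to 3, against 14.1, 15.3 and 9.19 in A549 Rec replicates 1 to 3. The ratio was higher in A549 Rec for each replicate number, but A549 Rec replicate 3 was below A549 MOCK replicates 1 and 2.

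Beyond the identity genes, 22 genes of surfactant processing and other alveolar type II functions were listed, and 11 of them passed the filter on low TPM. Several enzymes and carriers of surfactant lipid were present, at mean levels below that of FOXA2. Of these 11, 0 were called by limma in A549 Rec against A549 MOCK and 0 had an unadjusted p under 0.05. The log2 difference was above 0 in 5 and below 0 in 6, with a median of −0.0141 against 0.019 over all tested genes.

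**Figure D3:**
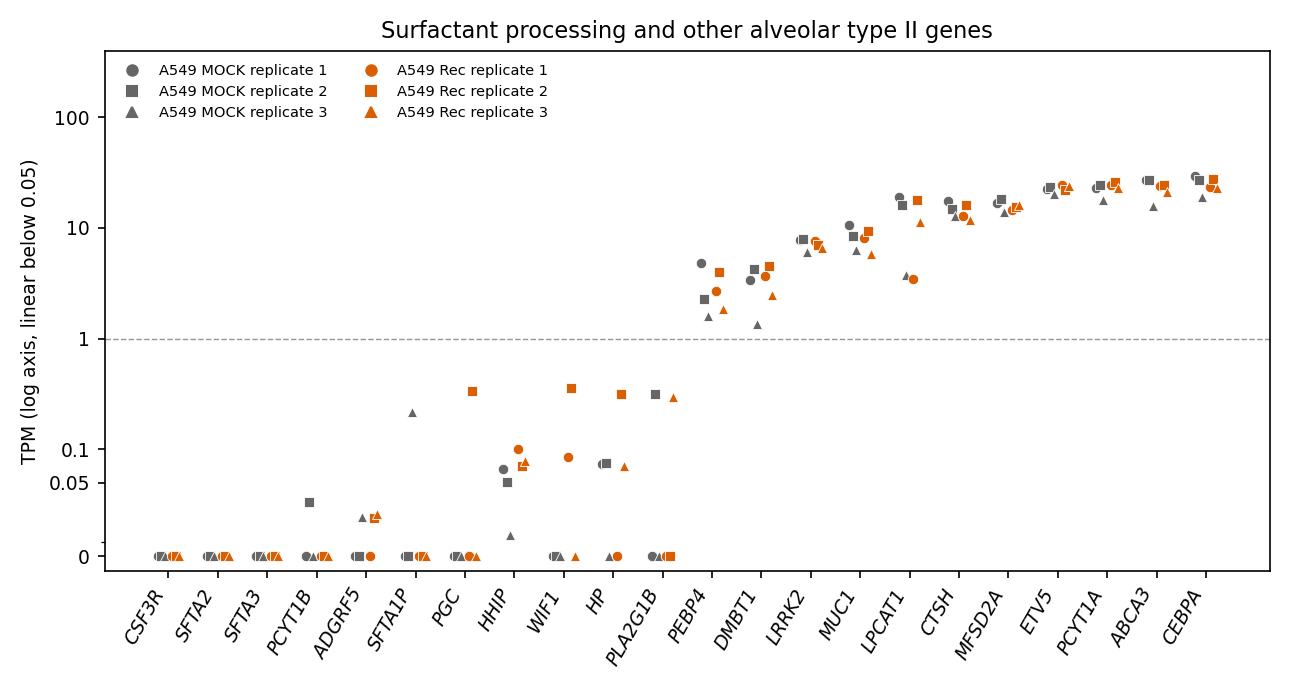
TPM of the 22 surfactant processing and other alveolar type II genes, ordered by mean level, on a log axis that is linear below 0.05 TPM. Each point is 1 library (grey A549 MOCK, orange A549 Rec, the shape gives the replicate number) and the dashed line marks 1 TPM. The genes split into 11 that are at or above 1 TPM in every library and 11 that are below 0.4 TPM in every library.

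ABCA3, the transporter that loads phospholipid into lamellar bodies, was at 27.3, 27.2 and 15.7 TPM in A549 MOCK, against 24.2, 24.7 and 21.2 TPM in A549 Rec. Its log2 difference was 0.04 with SE 0.21, and A549 MOCK replicate 3 was the lowest library. PCYT1A, which makes the CDP-choline needed for phosphatidylcholine, had a mean of 23.3 TPM and a range of 17.9 to 26.2 TPM. The transcription factors CEBPA and ETV5, both active in mature alveolar type II cells, had means of 25.1 and 22.8 TPM. MFSD2A, a carrier of lysophosphatidylcholine, had a mean of 15.9 TPM. CTSH, a protease that also trims surfactant precursors, lay between 11.8 and 17.5 TPM.

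LPCAT1, which remodels surfactant phosphatidylcholine, varied most of the 11. It was at 19.1, 16.2 and 3.73 TPM in A549 MOCK replicates 1 to 3. In A549 Rec replicates 1 to 3 it was at 3.48, 17.9 and 11.4 TPM. The low libraries were 1 of each group, with different replicate numbers and with 136 and 113 reads against 389 to 680 in the others, and the log2 difference was −0.21 with SE 0.68. Of the 11 genes under the filter, the surfactant-associated genes SFTA2 and SFTA3 and the receptor gene CSF3R were at 0 in all 6 libraries, and PGC, pepsinogen C, drew 4 reads, all in A549 Rec replicate 2.

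Of 22 transcription factors of lung and foregut, 16 were tested by limma, 0 were called and 0 had an unadjusted p under 0.05. A factor shared with liver and gut was present beside FOXA2. HNF4A, which directs liver and gut genes, was at 8.17, 9.77 and 4.58 TPM in A549 MOCK, against 10.6, 10.95 and 7.63 TPM in A549 Rec. HNF4A was higher in A549 Rec for each replicate number, and its groups overlapped. Its log2 difference was 0.37 with SE 0.26, limma's unadjusted p was 0.194, and with the replicate block it was 0.0265 (adjusted p 0.9981).

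GATA6, which acts with NKX2-1 in lung development, lay between 4.33 and 6.24 TPM. FOXA1, the close relative of FOXA2, lay between 3.18 and 5.62 TPM, below FOXA2 in every library. ID2, KLF5, ELF3, ETV4 and FOXP4 were the highest of the list, with means of 101, 58.5, 56.3, 48.7 and 23.7 TPM. Of the same list, GRHL2 drew 3 reads in all and ELF5 drew 1. The median log2 difference of the 16 was 0.11, with 10 above 0 and 6 below. TTF2, counted among the 16, is a transcription termination factor whose name is only similar to an older name of NKX2-1. It was measured apart from NKX2-1 and lay between 8.28 and 10.0 TPM.

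The genes most like FOXA2 across the 6 libraries, by Pearson's r of log2(TPM + 1), were FRA10AC1 (r = 0.999), AC011511.2 (r = 0.994) and AC007285.1 (r = 0.993). They were the highest of 17407 genes compared, none of them lies on the chromosome of FOXA2, and 94 genes had an r above 0.95. The 6 points share their libraries with every gene, including the replicate 3 pair.

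**Figure D4:**
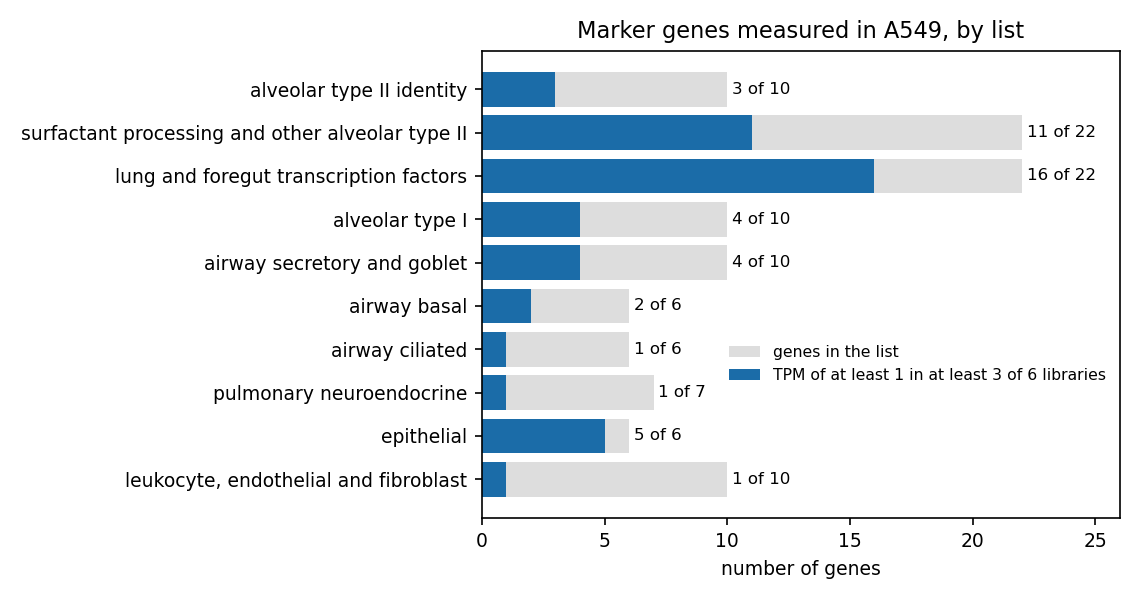
Number of genes in each marker list (grey) and number that reached 1 TPM in at least 3 of the 6 libraries (blue). The identity genes have 3 of 10, the surfactant processing list 11 of 22, the transcription factors 16 of 22 and the epithelial list 5 of 6.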

How the data were processed

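RNA of 2D-cultured A549 MOCK and A549 Rec (3 libraries each) was sequenced by the authors. The authors' processing notes name FastQC 0.11.7, Trimmomatic 0.38, HISAT2 2.1.0 and featureCounts 1.6.3, and the deposited table holds TPM per gene. The notes name a mouse build, but the table's gene IDs and coordinates are human and match GRCh38, as in the study's methods. The labels name a directional kit, and the use of strand in counting is not given in the sources used here. Groups and replicate numbers came from the labels. The members and the gene lists were chosen with earlier results of these data known.

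TPM were tested with limma 3.58.1 (R 4.3.3, trend) on log2(TPM + 1), for genes of at least 1 TPM in at least 3 libraries, with Benjamini-Hochberg adjustment. The exact permutation test used scipy 1.17.1 (Python 3.11.15). Whole reads were recovered for 29900 genes above 0 by finding, in each library, the TPM that 1 read is worth at a given length. The GENCODE v44 length was kept for 13777 genes, and another whole length was inferred for 16123, among them 9 members, so that reads of members with few are less certain than their TPM. For genes above 0 in at least 3 libraries, an inferred length was the shortest that fitted. A multiple of it could fit as well, as given for SFTPD, and would raise the reads of other members too. SFTPA1 has no reads, and its limit uses the GENCODE v44 length. After the mean of each group was subtracted, A549 MOCK and A549 Rec correlated at 0.115, 0.164 and 0.342 for replicates 1, 2 and 3. Libraries of unequal number were not compared in this way, so these values cannot decide whether the numbers pair the samples. The labels do not say what a number shares. The replicate block was therefore an alternative fit that assumes such a pairing, and "same-numbered pairs" refers to the labels only. All members were named, with RCVRN, the called genes and 5 highest genes of each list, HNF4A, GATA6, FOXA1, ABCA3, LPCAT1 and the 3 genes most like FOXA2. Gene neighbours and genes that overlap a member were taken by position, and list genes outside this rule (CTSH, SFTA2, SFTA3, CSF3R, PGC, TTF2, GRHL2, ELF5, CD163, CD3E and those under "Other observations" at or near 0) were chosen after their values were seen. RefSeq promoter windows matched 7 of 10 members. The values of 1 transcription factor of the lists are not reported here.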

Additional observations from a re-analysis of the deposited data

How the results depend on the processing

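Alternatives were another pseudocount, no filter on low TPM, quantile normalization, TPM rescaled without mitochondrially encoded genes, limma without trend, voom weights on recovered reads, the replicate block, and leaving out each library. Leaving out both replicate 3 libraries was added after seeing the data. Over all genes, 1 was called, and 6 were called with no filter and 6 by limma without trend (RCVRN and 5 small RNA genes). Without both replicate 3 libraries 2 were called, RCVRN and the pseudogene AC090498.1. Leaving out 1 library at a time gave 1 to 1. Of the members, 0 were called under each of these settings. The number detected was 5 at 0.1 TPM and 1 at 5 TPM, against 3 at 1 TPM. The log2 difference kept its direction in 41 of 42 alternative values of FOXA2, NAPSA and SFTPD. The estimates with no filter, without trend and with the replicate block equal the main ones by construction, and so could not change direction. Leaving out 1 library moved it from 0.03 to 0.29 for FOXA2, from −0.42 to −0.15 for NAPSA and from −0.12 to 0.30 for SFTPD, whose reversal was without A549 MOCK replicate 1 (−0.12). The cause was not tested. With the replicate block the log2 differences were by design those of the main fit (0.17, −0.31 and 0.11). Limma's adjusted p with the block was 0.9981 in each, and no call of a member changed. Depth limits the 7 members under 1 TPM, where 3 reads are worth 0.102 to 0.248 TPM.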

Other observations

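The other cell types of the lung epithelium were also only partly present. Of 10 airway secretory and goblet genes, 4 were tested. AGR2, a mucin folding factor, had a mean of 142 TPM, the gel-forming mucin MUC5B 79.7 TPM, the goblet cell factor SPDEF 22.6 TPM and the mucin MUC5AC 2.51 TPM. The secretory genes SCGB3A1, SCGB3A2, BPIFA1 and BPIFB1 were at 0 in all 6 libraries, and SCGB1A1 drew 4 reads. By limma 0 of the 4 tested genes were called in A549 Rec against A549 MOCK and 0 had an unadjusted p under 0.05. All 4 log2 differences were above 0, with a median of 0.26 against 0.019 over all tested genes. With the replicate block, 3 of the 4 had an unadjusted p under 0.05, against 715 of all 17408 tested genes (4.11%), and 0 were called. SPDEF was at 21.2, 22.5 and 13.1 TPM in A549 MOCK, against 31.9, 29.3 and 17.4 TPM in A549 Rec. It was higher in A549 Rec for each replicate number, with a log2 difference of 0.44 and SE 0.28. Limma's unadjusted p was 0.157, and with the block 0.00242 (adjusted p 0.8944). For MUC5B and AGR2 the unadjusted p with the block was 0.0275 and 0.0486.

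Of 10 alveolar type I genes, 4 were tested and 0 called by limma, with 0 at an unadjusted p under 0.05. CAV1, which forms caveolae, had a mean of 74.4 TPM, SEMA3B 66.3 TPM and EMP2 10.5 TPM. The defining genes HOPX, PDPN and AQP5 were at 0 and AGER drew 1 read. In the basal list 2 of 6 genes were tested (DLK2 at 2.97 TPM and KRT15 at 1.22 TPM), with 4 reads for KRT5. In the ciliated list 1 of 6 was tested, RSPH1. In the neuroendocrine list 1 of 7 was tested, SYP at 1.78 TPM, and 5 were at 0. In each of these lists limma called 0 genes, with 0 at an unadjusted p under 0.05. Of the 6 epithelial genes 5 were tested, with KRT7 at 607 TPM, CDH1 at 137 TPM and EPCAM at 2.08 TPM. KRT19 drew 10 reads in all. KRT7 was at 600, 575 and 592 TPM in A549 MOCK, against 621, 640 and 615 TPM in A549 Rec. These groups did not overlap, as for 899 of all 17408 tested genes (5.16%). That holds for TPM as deposited, not rescaled for the large mitochondrial share of the replicate 3 libraries. The log2 difference of KRT7 was 0.09, with SE 0.13 and limma's unadjusted p of 0.518.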
